A study of Mus musculus with 6 samples.

Results

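Endothelial cells line blood and lymphatic vessels, and 39 genes that mark them were followed in mammary tumours of mice with and without serglycin. The genes were taken from a list of names: pan-endothelial genes and genes of arterial, venous, lymphatic and tip cell endothelium. All 39 were measured, out of 22180 genes in all. The 6 tumours came from 6 mice that all carried PyMT, the polyoma middle T oncogene. Of these mice, 3 lacked serglycin (PyMT+ SG-/-) and 3 had kept 1 functional copy (PyMT+ SG+/-). The controls were thus heterozygous and not wild type. The sources used here give neither age nor strain nor the promoter that drives PyMT, nor do they state whether the tumours of a group came from separate litters. Replicate numbers follow the order of deposition and pair no mice. Values of a group are listed in the order of its replicates 1 to 3. Levels are RMA values on the log2 scale from 1 array per tumour, and a difference is SG-/- minus SG+/- on that scale, so that 1 unit is a doubling. The comparison asks whether the endothelial genes of a tumour differ when serglycin is lost.

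Vessels of a tumour grow by sprouting. A tip cell at the front of the sprout follows vascular endothelial growth factor (VEGF), which it senses through the receptor encoded by Kdr, and it signals to its neighbours through the Notch ligand encoded by Dll4. Arterial, venous and lymphatic endothelium then differ in transcription factors, ephrins, gap junctions and adhesion molecules. Endothelium is held together by VE-cadherin and claudin-5, and the angiopoietin receptor encoded by Tek and its partner encoded by Tie1 govern how tightly. Serglycin is a granule proteoglycan, made by blood cells and also by endothelial cells.

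The arrays separate the genotypes at serglycin itself. Srgn stood at 6.76, 6.43 and 6.35 in SG+/- and at 5.07, 5.04 and 4.89 in SG-/- tumours. Genes of odorant and pheromone receptors, 1390 in number, served as a gauge of unexpressed signal, and their array means ran from 4.58 to 5.87 and were highest in SG-/- replicate 3. That array also had the narrowest spread of values, with an interquartile range of 2.56 against 2.85 to 3.15 in the others. Epithelial markers had a mean level of at least 10.7 in every tumour, and they do not tell mammary from salivary gland. Bpifa2, a salivary secretory gene, stood at 6.18, 5.98 and 6.47 in SG+/- and at 13.54, 7.26 and 13.64 in SG-/- tumours, and its part in the endothelial values was not tested. The endothelial markers Pecam1, Cdh5, Kdr, Cldn5 and Vwf all lay above 6.09, the 40th percentile of probe sets, in every tumour. Only Icam2 and Sele among the 39 had a mean over the arrays under that level.

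Of the 39 endothelial genes, 34 had a higher mean in SG-/- tumours, where 46.3% of all genes did. The median difference was 0.27, against -0.01 over all genes. None passed the adjustment over all genes, where limma called 0 of 22180 (0%). Srgn itself, with a difference of -1.52 and the smallest p of all genes, did not pass either (limma adjusted p = 0.467). At an unadjusted limma p under 0.05 there were 6 endothelial genes (Cdh5, Cd34, Cldn5, Clec14a, Vwf and Selp), all higher in SG-/- tumours. Over all genes 1.43% were higher at that p and 0.685% lower. The submitters describe nearly all of their altered genes as lower in SG-/- tumours, and the direction here follows the genotype labels, with which the low Srgn of the SG-/- tumours goes. In 10 endothelial genes every SG-/- tumour lay above every SG+/- tumour, and in 0 genes it was the reverse. The background shares were 2.84% higher and 3.19% lower. An exact permutation test of 3 against 3 tumours cannot go below a two-sided p of 0.1. In bulk tissue, more endothelial cells and more RNA of these genes per cell cannot be told apart.

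**Figure D1:**
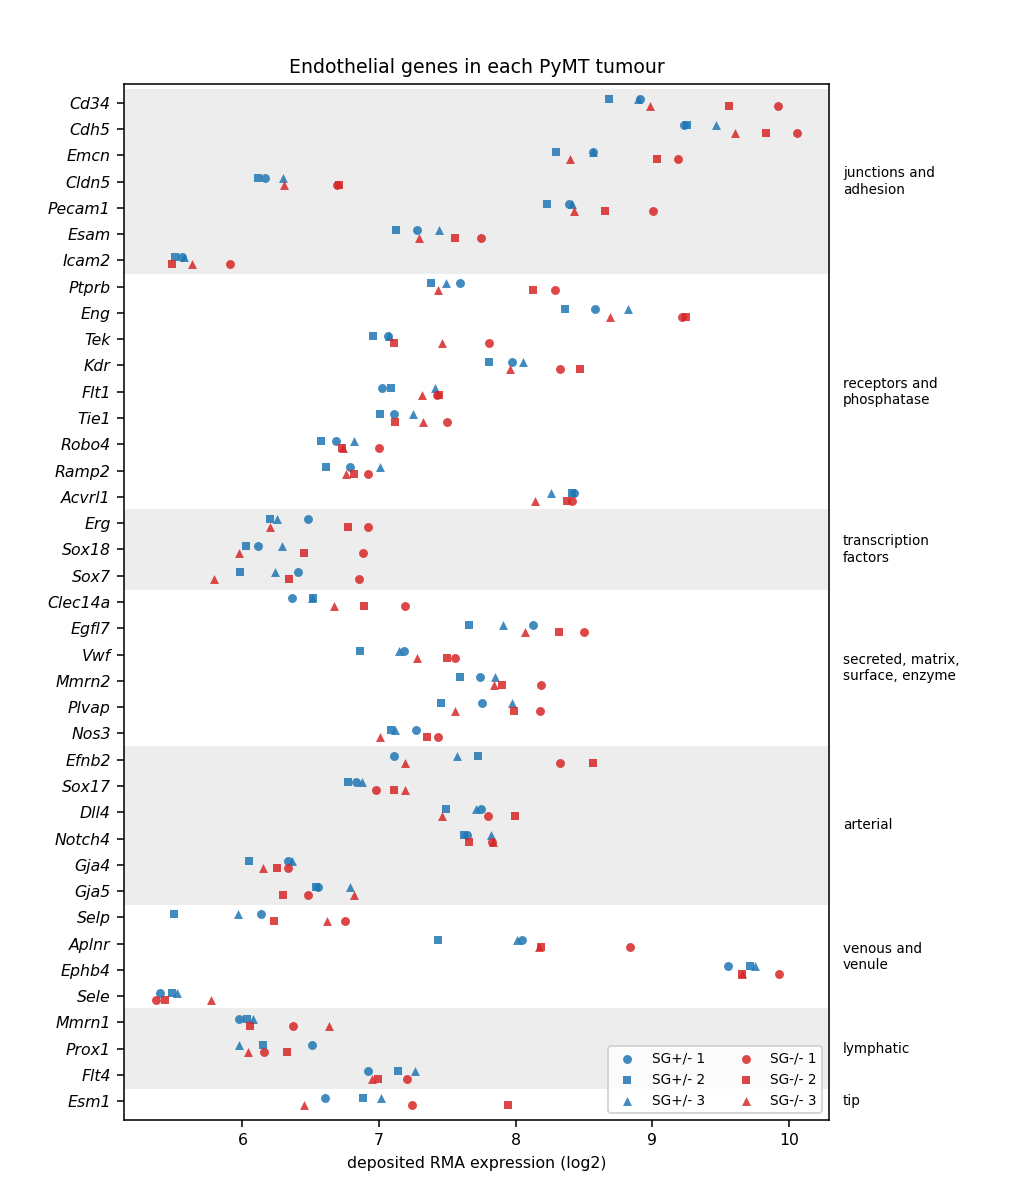
Deposited RMA expression (log2, x axis) of the 39 endothelial genes in each of the 6 tumours, grouped by role. Blue symbols are SG+/- and red symbols SG-/- tumours, and the symbol's shape gives the replicate. The red circle (SG-/- replicate 1) lies to the right of all blue symbols for 32 genes, the red square (replicate 2) for 25 and the red triangle (replicate 3) for 16.

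The high values were not spread evenly over the tumours. SG-/- replicate 1 held the highest value of 22 of the 39 genes, where it held that of 20.0% of all genes. SG+/- replicate 2 held the lowest value of 22 members and the highest of 0, where it was lowest in 17.1% and highest in 15.9% of all genes. Counted against the SG+/- tumours, SG-/- replicate 1 lay above all 3 of them in 32 members, replicate 2 in 25 and replicate 3 in 16. The shares of all genes were 27.5%, 19.7% and 30.9%. Replicates 1 and 2 thus held most of the high endothelial values of the SG-/- group. SG-/- replicate 1 also had the widest interquartile range, 3.15. Its mean of odorant and pheromone receptor genes was 4.58, as low as in SG+/- replicate 1. In SG+/- replicate 2 that mean was 5.63, exceeded only in SG-/- replicate 3. The part of these array traits in the order of the tumours was not tested.

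**Figure D2:**
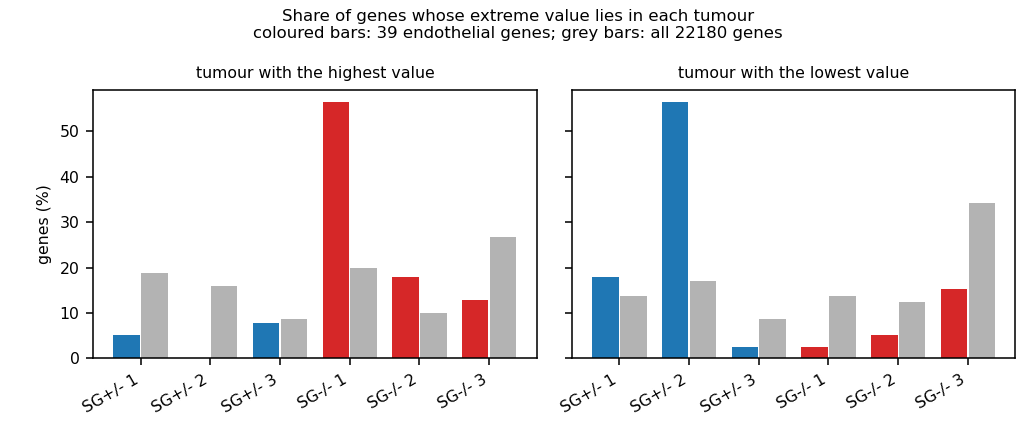
Percentage of genes (y axis) whose highest value (left) or lowest value (right) among the 6 tumours lies in the tumour named on the x axis. Coloured bars are the 39 endothelial genes and grey bars all 22180 genes. The tallest coloured bars stand at SG-/- replicate 1 on the left and SG+/- replicate 2 on the right, with 22 of 39 genes each.

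The genes of junctions and adhesion had a median difference of 0.37, and all 7 were higher in SG-/- tumours. Cdh5, which encodes VE-cadherin, the adhesion molecule of endothelial adherens junctions, stood at 9.23, 9.26 and 9.47 in SG+/- and at 10.06, 9.83 and 9.60 in SG-/- tumours. The groups did not overlap, though SG-/- replicate 3 lay only just above SG+/- replicate 3. Cdh5 was 0.51 higher, or 1.43-fold, with a standard error of 0.16, and the 95% confidence interval ran from 0.14 to 0.89 (limma adjusted p = 1.00). Cd34, a sialomucin of endothelium that blood progenitors and stromal cells also carry, had values of 8.91, 8.68 and 8.90 in SG+/- and 9.92, 9.56 and 8.98 in SG-/- tumours. The first and second SG-/- tumours were well above the controls and the third close to them. Cd34 was 0.66 higher with a standard error of 0.24 (limma adjusted p = 1.00), and 0.44 higher without SG-/- replicate 1.

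Pecam1 encodes CD31, an adhesion molecule between endothelial cells that platelets and leukocytes share. It stood at 8.39, 8.23 and 8.41 in SG+/- and at 9.00, 8.65 and 8.43 in SG-/- tumours. The SG-/- tumours had the same order as for Cdh5 and Cd34, and the gap between SG-/- replicate 3 and the highest control was slight. The difference of 0.35 had a standard error of 0.17 (limma adjusted p = 1.00) and was 0.20 without SG-/- replicate 1. Cldn5, the claudin of endothelial tight junctions, stood at 6.17, 6.12 and 6.30 in SG+/- tumours. In SG-/- tumours it stood at 6.69, 6.71 and 6.31. Replicates 1 and 2 were alike and high, and replicate 3 was at the level of the highest control. Cldn5 was 0.37 higher, with a standard error of 0.15 (limma adjusted p = 1.00). In the remaining junction and adhesion genes the genotypes overlapped. Emcn, an endothelial sialomucin of capillaries and veins, was at 8.48 ± 0.15 in SG+/- and 8.87 ± 0.42 in SG-/- tumours (SD, n = 3 each). Esam, an adhesion molecule of tight junctions, was 0.25 higher. Icam2, a ligand of leukocyte integrins, was 0.13 higher and dim, at 5.54 in SG+/- tumours, and leaving out SG-/- replicate 1 gave 0.016, while array weights gave 0.0043.

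**Figure D3:**
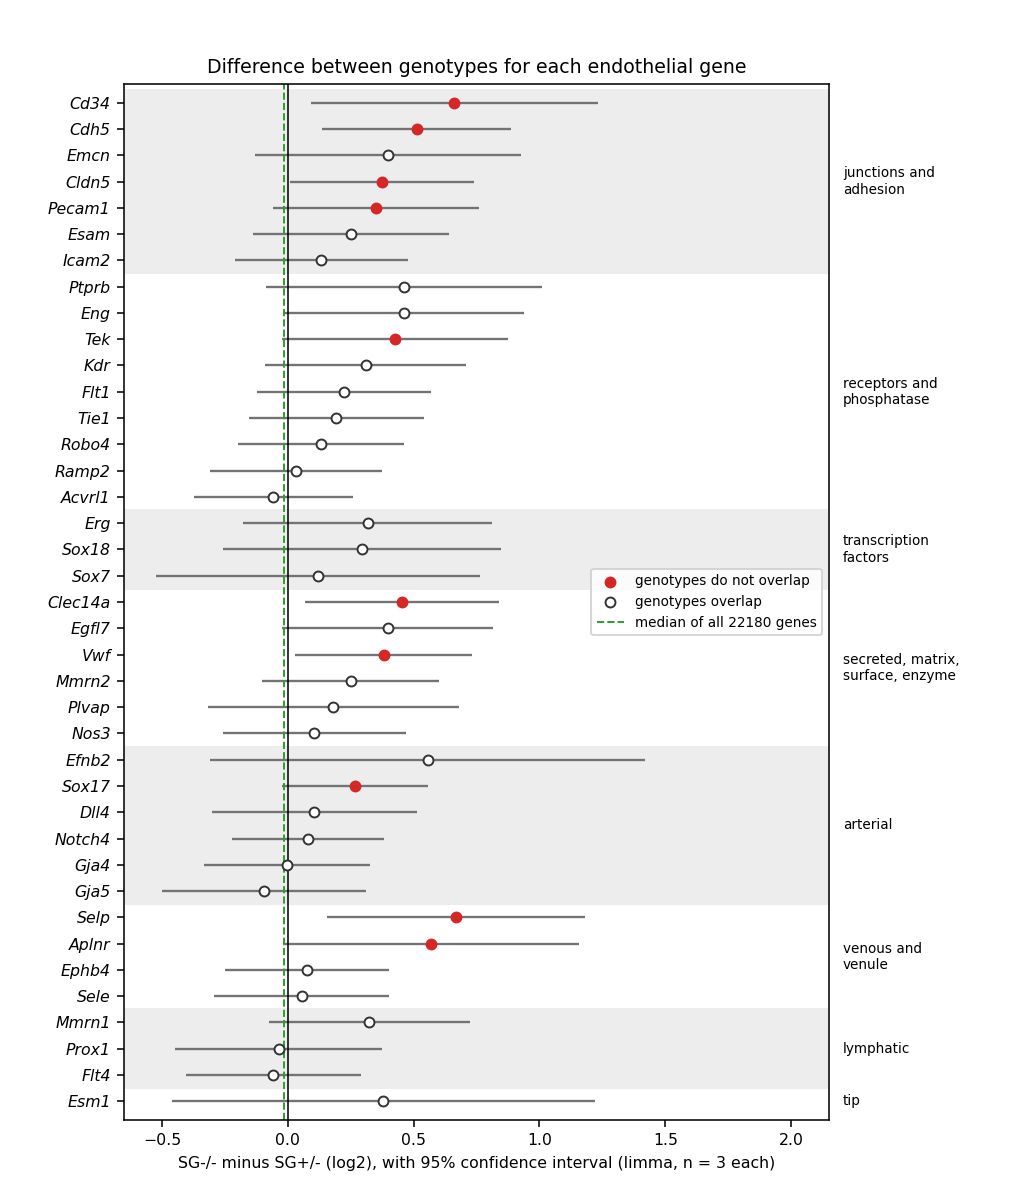
Difference between genotypes (SG-/- minus SG+/-, log2, x axis) of each endothelial gene, with its 95% confidence interval from limma (n = 3 tumours each). Filled points mark the 10 genes whose genotypes did not overlap, and the dashed line is the median of all genes at -0.01. Points of the junction genes lie between 0.13 and 0.66. Those of the arterial genes lie between -0.10 and 0.56, and those of the lymphatic genes between -0.06 and 0.32.

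Of 9 genes for receptors and for a phosphatase that acts on them, 8 had a higher mean in SG-/- tumours, and the median difference was 0.22. Kdr encodes VEGFR2, the main receptor through which VEGF drives endothelial growth. It stood at 7.97, 7.80 and 8.05 in SG+/- and at 8.33, 8.47 and 7.96 in SG-/- tumours. SG-/- replicates 1 and 2 were above all controls and replicate 3 was among them. The difference was 0.31, with an interval from -0.09 to 0.71 (limma adjusted p = 1.00), and was 0.20 without SG-/- replicate 2. Tek, which encodes the angiopoietin receptor TIE2, stood at 7.06, 6.96 and 7.07 in SG+/- tumours. Its SG-/- values were 7.80, 7.11 and 7.46. Here replicate 2, which was highest for Kdr, lay close to the controls, and the groups did not overlap. Tek was 0.43 higher, with a standard error of 0.19 (limma adjusted p = 1.00). Leaving out SG-/- replicate 1 gave 0.25, and array weights gave 0.18.

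The other genes of this group overlapped between genotypes. Ptprb encodes VE-PTP, a phosphatase that restrains TIE2 and VE-cadherin, and stood at 7.49 ± 0.10 in SG+/- and 7.95 ± 0.46 in SG-/- tumours (SD, n = 3 each). Eng encodes endoglin, a co-receptor for ligands of the TGF-beta family, and stood at 8.59 ± 0.23 and 9.05 ± 0.31. Acvrl1 encodes ALK1, the kinase receptor that works with endoglin, and was the sole gene of the group with a lower mean, differing by -0.06 with an interval from -0.37 to 0.26. That sign turned without SG-/- replicate 3, where Acvrl1 was 0.02 higher. Flt1, the VEGF receptor that also acts as a decoy, was 0.22 higher, and Tie1, the orphan partner of TIE2, was 0.19 higher. Without SG-/- replicate 1 Tie1 was 0.10 higher, and with array weights 0.020. Robo4, a guidance receptor of stable vessels, was 0.13 higher, and 0.043 without SG-/- replicate 1. Ramp2, which makes the calcitonin-like receptor respond to adrenomedullin, was 0.03 higher, and differed by -0.062 without SG+/- replicate 2. No gene of this group had an unadjusted limma p under 0.05, where 2.11% of all genes did.

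Of the endothelial transcription factors, Erg, an ETS factor, was 0.32 higher in SG-/- tumours, and the SOXF factors Sox18 and Sox7 were 0.29 and 0.12 higher. The genotypes overlapped in each. The medians of these 3 genes, as deviations from the SG+/- mean, were 0.64, 0.31 and -0.17 in SG-/- replicates 1 to 3 and from -0.12 to 0.17 in SG+/- tumours. Without SG-/- replicate 1 the median difference was 0.07 in place of 0.29.

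All 6 genes for secreted, matrix and surface proteins and the endothelial nitric oxide synthase had a higher mean in SG-/- tumours, and their median was 0.32. Vwf, the von Willebrand factor that tethers platelets, stood at 7.18, 6.86 and 7.15 in SG+/- and at 7.55, 7.50 and 7.28 in SG-/- tumours. The groups did not overlap, and SG-/- replicate 3 lay nearer to the highest control than to the other SG-/- tumours. Vwf was 0.38 higher with a standard error of 0.15, or 1.30-fold (limma adjusted p = 1.00). Clec14a, a lectin-like receptor of tumour vessels, stood at 6.36, 6.52 and 6.51 in SG+/- and at 7.19, 6.89 and 6.67 in SG-/- tumours. Again the groups did not overlap and SG-/- replicate 1 was highest. Clec14a was 0.45 higher, with a standard error of 0.16 (limma adjusted p = 1.00). Mmrn2, a matrix protein that CLEC14A binds, was 0.25 higher, and Egfl7, a protein secreted into the matrix of sprouts, 0.40 higher. Plvap, which forms the diaphragms of fenestrated capillaries, was 0.18 higher, and 0.044 and 0.046 higher without SG+/- replicate 2 and SG-/- replicate 1. Nos3 was 0.11 higher, and 0.021 without SG-/- replicate 1. In these 4 genes the genotypes overlapped.

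The arterial genes had a median difference of 0.09, and 4 of 6 had a higher mean in SG-/- tumours. Leaving out SG+/- replicate 2 gave a median of 0.035, and leaving out SG+/- replicate 3 gave 0.14. Sox17, a SOXF factor of arterial fate, stood at 6.83, 6.77 and 6.87 in SG+/- and at 6.98, 7.11 and 7.19 in SG-/- tumours. It was the sole arterial gene whose groups did not overlap, and here SG-/- replicate 3 was highest. Sox17 was 0.27 higher, with a standard error of 0.12 (limma adjusted p = 1.00). Efnb2 encodes ephrin-B2, the arterial ligand of EphB4, and stood at 7.11, 7.73 and 7.57 in SG+/- tumours. Its SG-/- values were 8.32, 8.56 and 7.19, so that replicates 1 and 2 were high and replicate 3 was among the controls. The difference was 0.56 with an interval from -0.31 to 1.42 (limma adjusted p = 1.00). Leaving out SG-/- replicate 2 gave 0.29, and leaving out replicate 3 gave 0.97.

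The Notch pair of arterial endothelium was nearly level between genotypes. Dll4, the Notch ligand of arteries and tip cells, stood at 7.74, 7.49 and 7.71 in SG+/- and at 7.80, 8.00 and 7.46 in SG-/- tumours. Its SG-/- values reached both above and below the controls. Notch4, an endothelial Notch receptor, stood at 7.64, 7.63 and 7.82 in SG+/- and at 7.83, 7.66 and 7.84 in SG-/- tumours. The differences were 0.10 for Dll4, with an interval from -0.30 to 0.51, and 0.08 for Notch4, with an interval from -0.22 to 0.38. Gja4 and Gja5 encode connexins 37 and 40 of arterial gap junctions. Gja4 stood at 6.33, 6.05 and 6.37 in SG+/- and at 6.33, 6.25 and 6.15 in SG-/- tumours, and Gja5 stood at 6.55, 6.54 and 6.79 and at 6.48, 6.29 and 6.82. For Gja5, SG-/- replicates 1 and 2 were below all controls and replicate 3 above them. The differences were -0.0025 with an interval from -0.33 to 0.33 for Gja4 and -0.10 with an interval from -0.50 to 0.31 for Gja5. The direction of Gja4, Gja5, Dll4 and Notch4 turned under at least 1 alternative setting. Over tumours, the arterial median deviated from the SG+/- mean by 0.14, 0.14 and 0.02 in SG-/- replicates 1 to 3, while that of the junction genes did so by 0.66, 0.51 and 0.09. Whether these groups differ was not tested. Of 12 further arterial genes, 11 had a higher mean in SG-/- tumours (46.3% of all genes). At an unadjusted limma p under 0.05 there were 0 (2.11% of all genes), and the median difference was 0.11. Hey1, a Notch target, was 0.02 higher, and Nrp1, a VEGF co-receptor, 0.38 higher. In SG+/- tumours Hey1 had a mean of 11.78 and Notch1, of the same list, 10.50, against 9.32 for Cdh5. The mean level of epithelial markers ran from 10.75 to 10.93 there. Which cells of the tumour carry Hey1 and Notch1 was not tested.

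Of the venous and venule genes, Selp and Aplnr did not overlap between genotypes, while Ephb4 and Sele did. Selp encodes P-selectin, an adhesion molecule stored in endothelial and platelet granules that captures leukocytes. It stood at 6.14, 5.50 and 5.96 in SG+/- and at 6.75, 6.23 and 6.62 in SG-/- tumours. SG-/- replicate 2 was just above the highest control, and SG+/- replicate 2 was lowest of all. The values of SG+/- replicates 2 and 3 lay under the dim level of 6.09. In SG+/- replicate 2, Selp was also under that array's mean of odorant and pheromone receptor genes, 5.63. The size of the Selp difference thus rests in part on dim control values. The difference of 0.67 was the largest among the 39 genes and had a standard error of 0.22, or 1.59-fold, with an interval from 0.16 to 1.18 (limma adjusted p = 1.00). Leaving out SG+/- replicate 2 gave 0.48, and array weights gave 0.43. Aplnr, the apelin receptor of veins and sprouting endothelium, stood at 8.05, 7.43 and 8.01 in SG+/- and at 8.84, 8.19 and 8.17 in SG-/- tumours. SG+/- replicate 2 was again lowest and SG-/- replicate 1 highest. Aplnr was 0.57 higher with a standard error of 0.25 (limma adjusted p = 1.00). Leaving out SG-/- replicate 1 gave 0.35, and leaving out SG+/- replicate 2 gave 0.37.

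Ephb4, the venous receptor of ephrin-B2, stood at 9.55, 9.72 and 9.75 in SG+/- and at 9.93, 9.66 and 9.66 in SG-/- tumours. Its SG+/- mean of 9.67 was above that of Cdh5, 9.32. Which cells of the tumour carry Ephb4 was not tested. Sele, which encodes E-selectin of inflamed venules, stood at 5.40, 5.48 and 5.52 and at 5.37, 5.43 and 5.77. Both overlapped, with differences of 0.07 (interval -0.25 to 0.40) and 0.06 (interval -0.29 to 0.40), and Sele was under the dim level of 6.09. Without SG-/- replicate 3 Sele differed by -0.07, and without SG-/- replicate 1 Ephb4 differed by -0.02. Of 7 further venous and venule genes, 4 had a higher mean in SG-/- tumours (46.3% of all genes). At an unadjusted limma p under 0.05 there were 0 (2.11% of all genes), and the median difference was 0.01. Nr2f2, the transcription factor of venous identity, was 0.01 higher and Vcam1, an adhesion molecule of activated endothelium, 0.39 higher, with overlap in both.

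The promoters of these genes were read for motifs of factors that govern endothelium. RefSeq windows of GRCm38.p6 with 250 bases before the annotated start were at hand for 24 of the 39 genes, the first listed window where a gene had several. The letters AGGAAG or, on the other strand, CTTCCT, the core of a site for ETS factors such as ERG, occurred in 11 of the 24 windows (45.8%) and in 29.2% of the windows of 27025 genes. The SOX letters AACAAT occurred in 3 (12.5%, against 9.65% of all), the GATA letters AGATAA in 0 (against 10.3%) and the RBPJ letters TGGGAA of Notch signalling in 5 (20.8%, against 21.5%), each on either strand. No match of a motif overlapped that of another in these windows. The windows of 4 members are shown because they pair genes without overlap between genotypes (Selp and Cd34) with genes that were nearly level (Sele, of the same selectin gene cluster on chromosome 1, and Notch4). Capitals mark the ETS letters. All 4 genes lie on the plus strand, at chr1:164115014-164115263 for Selp, chr1:164047984-164048233 for Sele, chr1:194938571-194938820 for Cd34 and chr17:34564045-34564294 for Notch4.
Selp: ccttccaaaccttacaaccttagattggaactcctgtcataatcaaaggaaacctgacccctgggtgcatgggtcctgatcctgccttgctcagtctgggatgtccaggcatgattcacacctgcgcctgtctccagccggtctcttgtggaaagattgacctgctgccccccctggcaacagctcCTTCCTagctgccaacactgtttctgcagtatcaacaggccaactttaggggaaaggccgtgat
Sele: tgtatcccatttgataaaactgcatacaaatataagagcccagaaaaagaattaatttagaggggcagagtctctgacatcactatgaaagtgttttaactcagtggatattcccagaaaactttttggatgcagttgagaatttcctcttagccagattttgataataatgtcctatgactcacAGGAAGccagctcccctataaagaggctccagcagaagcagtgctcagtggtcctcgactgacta
Cd34: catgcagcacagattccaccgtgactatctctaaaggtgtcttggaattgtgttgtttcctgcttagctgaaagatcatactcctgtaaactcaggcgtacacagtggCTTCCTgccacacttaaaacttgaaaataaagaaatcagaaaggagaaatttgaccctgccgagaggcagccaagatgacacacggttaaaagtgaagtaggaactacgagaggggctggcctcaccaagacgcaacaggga
Notch4: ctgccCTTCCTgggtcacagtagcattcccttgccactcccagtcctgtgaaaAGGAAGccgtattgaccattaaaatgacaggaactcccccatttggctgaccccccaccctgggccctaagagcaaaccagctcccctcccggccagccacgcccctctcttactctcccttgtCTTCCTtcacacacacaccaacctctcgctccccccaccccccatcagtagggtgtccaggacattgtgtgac

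All 4 windows were chosen among those with ETS letters. Of the 5 genes without overlap between genotypes that had a window, 2 held the letters and 3 (Cldn5, Clec14a and Tek) did not, and of the 19 with overlap 9 held them. In the windows shown the letters began 64 bases before the start in Selp and 65 bases before it in Sele, on opposite strands, 142 bases before it in Cd34 and 245, 197 and 73 bases before it in Notch4. A match of letters is a description and shows no binding.

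The lymphatic genes had a median difference of -0.04, and 1 of 3 had a higher mean in SG-/- tumours. Prox1, the transcription factor of lymphatic identity, stood at 6.51, 6.15 and 5.97 in SG+/- and at 6.16, 6.33 and 6.04 in SG-/- tumours. Flt4, which encodes VEGFR3, the receptor of VEGF-C and VEGF-D, stood at 6.92, 7.14 and 7.26 and at 7.20, 6.99 and 6.95. In both genes the SG-/- values lay within the range of the controls. The differences were -0.04 for Prox1 (interval -0.45 to 0.38) and -0.06 for Flt4 (interval -0.40 to 0.29). Mmrn1, a multimerin of lymphatic endothelium that platelets also store, stood at 5.97, 6.03 and 6.08 in SG+/- tumours. Its SG-/- values were 6.37, 6.05 and 6.63, so that replicates 1 and 3 were above the controls and replicate 2 was among them. Mmrn1 was 0.32 higher, with a standard error of 0.17 (limma adjusted p = 1.00). Leaving out SG-/- replicate 3 gave 0.18, and array weights gave 0.077. The sign of the lymphatic median turned in 5 of the alternative settings, and without SG+/- replicate 1 it was 0.11.

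Outside the 39 genes, a list of 7 further lymphatic genes contained the receptor's ligands. Of these, 6 had a higher mean in SG-/- tumours (46.3% of all genes), and the median difference was 0.49. The 2 with an unadjusted limma p under 0.05 (2.11% of all genes) were the ligands, Vegfc and Vegfd. These growth factors act on lymphatic endothelium rather than mark it. Vegfc stood at 7.05, 7.48 and 7.49 in SG+/- and at 7.66, 7.77 and 7.75 in SG-/- tumours, and Vegfd at 5.62, 5.56 and 5.81 and at 7.18, 6.02 and 6.30. Neither growth factor overlapped between genotypes, while their receptor gene Flt4 did, and this contrast was not tested. In this list 2 genes had a mean over the arrays under the dim level of 6.09. For Vegfd, every SG+/- tumour and SG-/- replicate 2 lay under that level. The differences were 0.39 for Vegfc (limma adjusted p = 1.00) and 0.84 for Vegfd (limma adjusted p = 1.00). Lyve1, the hyaluronan receptor of lymphatic endothelium that some macrophages carry, was 0.49 higher, with 8.25 and 7.58 in SG-/- replicates 1 and 3 above all controls and 7.05 in replicate 2 among them.

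Of tip cell genes, Esm1, which encodes endocan, a proteoglycan secreted by tip cells, stood at 6.61, 6.88 and 7.01 in SG+/- and at 7.24, 7.95 and 6.45 in SG-/- tumours. SG-/- replicate 2 was highest and replicate 3 lowest of all 6 tumours, so that the range within SG-/- tumours spanned all controls. The difference was 0.38 with an interval from -0.46 to 1.22 (limma adjusted p = 1.00). Leaving out SG-/- replicate 2 gave 0.012, and leaving out replicate 3 gave 0.76. Kdr and Dll4, also tip cell genes, were likewise highest in SG-/- replicate 2 and lay among or below the controls in replicate 3. The arterial gene Efnb2 did the same. Flt4, also a tip cell gene, did not. It stood at 7.20, 6.99 and 6.95 in SG-/- tumours and was highest in SG+/- replicate 3, at 7.26. Of 10 further tip cell genes, 5 had a higher mean in SG-/- tumours (46.3% of all genes). At an unadjusted limma p under 0.05 there were 0 (2.11% of all genes), and the median difference was 0.002. The medians were 0.22, 0.25 and -0.49 in SG-/- replicates 1 to 3. Apln, the ligand of the apelin receptor, was 0.42 higher, at 8.19, 7.88 and 6.94 in SG-/- tumours against 7.28, 6.87 and 7.60 in SG+/- tumours. Pgf, the placental growth factor that binds FLT1, differed by -0.67 with overlap.

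Over tumours, the medians of the 39 genes stood at 0.01, -0.11 and 0.10 in SG+/- tumours and at 0.45, 0.28 and 0.08 in SG-/- tumours, as deviations from the SG+/- mean. SG-/- replicate 3 thus lay below SG+/- replicate 3. A list of 23 other pan-endothelial genes had medians of 0.33, 0.17 and 0.00 in SG-/- replicates 1 to 3 and at most 0.02 in SG+/- tumours. In that list 19 genes had a higher mean in SG-/- tumours (46.3% of all genes), and the median difference was 0.21. At an unadjusted limma p under 0.05 there were 0 (2.11% of all genes). In 2 genes every SG-/- tumour lay above every SG+/- tumour (2.84% of all genes). Cd93, a surface receptor of endothelium, was 0.33 higher, Fli1, an ETS factor, 0.44 and Rapgef3, which signals from cyclic AMP to junctions, 0.30.

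**Figure D4:**
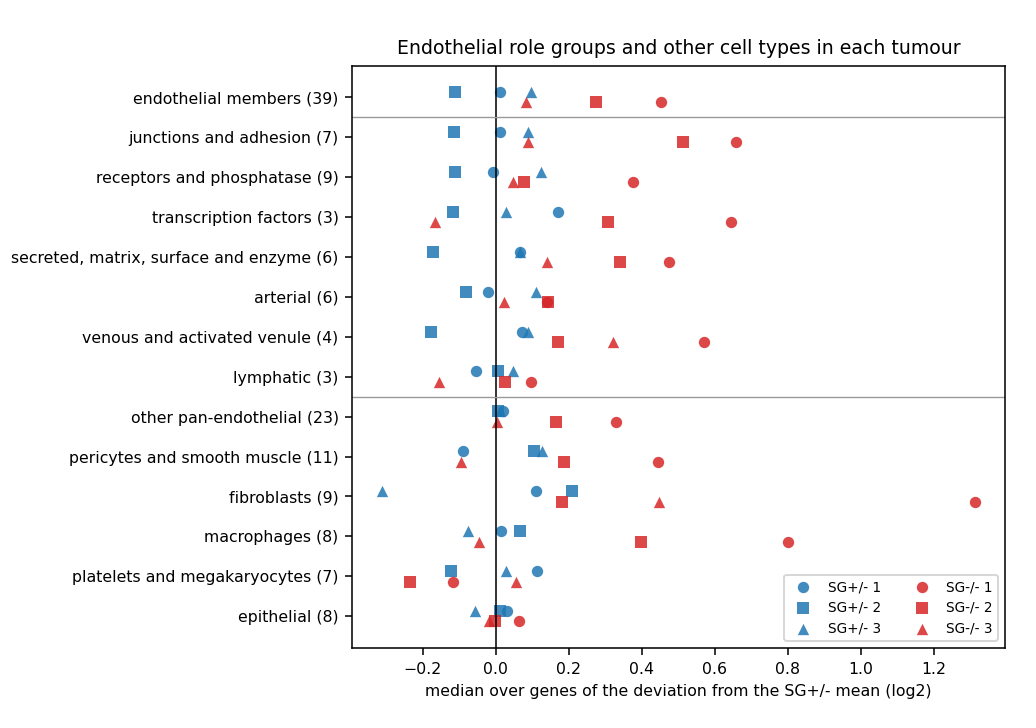
Median over the genes of a group of the deviation from the SG+/- mean (log2, x axis) in each tumour, for all 39 endothelial genes, their role groups and lists of other cell types, with the number of genes in brackets. Blue symbols are SG+/- and red symbols SG-/- tumours, and the shape gives the replicate. For the 39 genes SG-/- replicates 1 and 2 stand at 0.45 and 0.28 and replicate 3 at 0.08, and the fibroblast and macrophage lists are also highest in SG-/- replicate 1.

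Markers of other cell types were also high in SG-/- replicate 1. Fibroblast markers had medians of 0.11, 0.21 and -0.31 in SG+/- tumours and of 1.31, 0.18 and 0.45 in SG-/- tumours, with all 9 genes higher in mean, and their mean level ran from 8.97 to 9.45 in SG+/- and from 9.46 to 10.6 in SG-/- tumours. Macrophage markers had medians of 0.01, 0.07 and -0.08 in SG+/- tumours and of 0.80, 0.40 and -0.05 in SG-/- tumours, with all 8 genes higher in mean, and their mean level ran from 8.59 to 8.73 and from 8.61 to 9.58. Pericyte and smooth muscle markers, for cells that wrap vessels, had medians of -0.09, 0.11 and 0.13 in SG+/- tumours and of 0.45, 0.19 and -0.10 in SG-/- tumours, with 9 of 11 genes higher in mean, and mean levels of 8.46 to 8.78 and 8.48 to 9.15. SG-/- replicate 1 thus had the highest median in the endothelial, pericyte and smooth muscle, fibroblast and macrophage lists. The order of the other tumours differed between lists. In the pericyte list Rgs5 was highest in SG-/- replicate 1. Kcnj8 was not, at 7.76 there and at 8.21, 7.76 and 7.83 in SG+/- tumours. Which cells carry these markers, and the part of the lists in the endothelial differences, was not tested. The mean levels of the 39 genes ran from 7.11 to 7.30 in SG+/- and from 7.28 to 7.66 in SG-/- tumours.

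Some members are also products of blood cells. Platelet and megakaryocyte markers, which bear on Vwf, Selp, Pecam1 and Mmrn1, had 3 of 7 genes higher in mean and a median difference of -0.08. Itga2b, the platelet integrin, stood at 7.53, 7.21 and 7.27 in SG+/- and at 7.14, 6.91 and 7.01 in SG-/- tumours, a difference of -0.31 without overlap, whereas Pf4, platelet factor 4, was 0.58 higher without overlap. Blood progenitor markers, which bear on Cd34 and Tek, had all 7 genes higher in mean and a median difference of 0.16, and 3 of the 7 lay under the dim level of 6.09. Kit was 0.16 higher and Myb 0.65 higher, with overlap. Kit had a mean of 11.40 in SG+/- tumours, where the mean level of epithelial markers ran from 10.75 to 10.93. Which cells carry Kit was not tested. Adipocyte markers, from the fat in which the gland lies, had a median of 0.32 with all 7 genes higher in mean, and medians of 0.34, -0.12 and 0.45 in SG-/- replicates 1 to 3. Epithelial markers had a median difference of 0.03 and 5 of 8 higher in mean. Salivary gland genes had medians of 2.28, -0.35 and 1.81 in SG-/- replicates 1 to 3, and their members did not go together. Klk1 was above all controls in every SG-/- tumour, with a difference of 4.45. Dcpp2 had a difference of -2.54, and its groups all but touched, with SG-/- replicate 3 and SG+/- replicate 1 both at 7.43. Of 7 red blood cell markers, 2 were measured, with a median difference of -0.06. The part of these lists in the endothelial values was not tested.

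The number of endothelial genes that reached an unadjusted limma p of 0.05 depended on single tumours. Against 6 genes over all tumours (2.11% of all genes), leaving out SG-/- replicate 1 left 0 (1.47% of all genes), SG+/- replicate 2 left 1 (1.66%), SG+/- replicate 3 left 3 (2.08%) and SG-/- replicate 3 gave 16 (5.41%). The count without overlap, 10 in either direction (6.03% of all genes), became 19 when SG+/- replicate 3 was left out (14.6%) and 26 when SG-/- replicate 3 was (21.5%), where fewer tumours make overlap rarer for every gene. The number of members with a higher mean ran from 31 to 36 when any 1 tumour was left out. Leaving out SG-/- replicate 1 gave a median of 0.17, and leaving out replicate 3 gave 0.37. Of the 39 differences, 9 (Cdh5, Cldn5, Cd34, Eng, Vwf, Egfl7, Clec14a, Sox17 and Selp) stayed within 1.5 times their value whichever tumour was left out, and 30 did not.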

How the data were processed

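Tumour RNA of 3 SG-/- and 3 SG+/- mice, all carrying PyMT, had been hybridised to 1 Affymetrix whole-transcript array each. The deposited values are log2 expression per probe set. Per the series description, the authors normalized them by RMA, and the submitters' processing notes list Affymetrix Expression Console, RMA and limma with no version. Of 33793 probe sets, 23521 had 1 gene symbol in the platform annotation. The probe set with the highest mean over the arrays stood for each of 22180 genes, and each of the 39 endothelial genes had 1 such probe set. The number of arrays limits the precision.

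SG+/- tumours were subtracted from SG-/- tumours as independent groups, with lmFit and eBayes of limma 3.58.1 in R 4.3.3. Tests were two-sided, and p-values were adjusted over the whole set of 22180 genes (Benjamini-Hochberg, threshold 0.05). The procedure was tested on simulated data. Python 3.11.15 and matplotlib 3.10.9 made the plots. The members, lists and alternatives were chosen with earlier results of these data known. All members are named, and values in every tumour are given for Pecam1, Cdh5, Kdr, Vwf, the arterial, venous, lymphatic and tip members, and members with an unadjusted p under 0.05 or no overlap between genotypes. Of each other list, the gene written first and the 2 with the smallest p may be named. Alternatives were leaving out genes whose mean lay below 6.09 (percentile 40 of probe sets), quantile normalization again, centring arrays on brighter genes, trend and robust variances, array weights, the mean of a gene's probe sets, a silent-gene covariate and each mouse left out.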

Additional observations from a re-analysis of the deposited data

How the results depend on the processing

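No paired analysis was possible because the labels give the mice no shared numbers. Over all genes limma called 0 after adjustment, 1 with the silent-gene mean as a covariate and 0 to 1 with a mouse left out. Endothelial genes at an unadjusted limma p under 0.05 numbered 6, against 14 with arrays centred on brighter genes (2.85% of all genes), 18 with array weights (11.6%), 13 with the covariate (4.68%), and 0 to 16 with a mouse left out. There were 0 at p under 0.01 (0.401% of all genes) and 14 at p under 0.1 (4.91%). Those without overlap numbered 10, against 16 after centring (7.42% of all genes) and 10 to 26 with a mouse left out (12.5% to 21.5%). The venous median of 0.32 became 0.57 without dim genes and 0.20 with array weights, and the arterial median of 0.09 ranged from 0.035 to 0.14 with a mouse left out. The lymphatic median of -0.04 became 0.0039 after centring and 0.077 with array weights, and ranged from -0.043 to 0.11 with a mouse left out. The further venous list was at -0.029 without dim genes and -0.026 to 0.079 with a mouse left out, and the further tip list at -0.028 after quantile normalization, -0.011 with the covariate and -0.11 to 0.17 with a mouse left out.

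Of 505 member differences recomputed over 13 settings, 482 kept their direction and side of the threshold and 23 turned, and 28 members had no turn. Trend and robust variances and the leaving out of dim genes could not change a member's difference. Neither could the mean of probe sets, as each member had 1 probe set. The differences from these settings are among the 482. With array weights, which gave SG-/- replicate 3 a weight of 0.20 and SG-/- replicate 2 one of 4.95, Acvrl1 was at 0.043, Ramp2 at -0.044, Notch4 at -0.048, Ephb4 at -0.0016, Sele at -0.055 and Prox1 at 0.17. Ramp2 was at -0.029 after quantile normalization, and Gja4 at 0.037 and Prox1 at 0.0039 after centring. With a mouse left out, Acvrl1 ranged from -0.11 to 0.025, Ramp2 from -0.062 to 0.13, Sox7 from -0.14 to 0.39, Dll4 from -0.018 to 0.25, Gja4 from -0.10 to 0.055, Gja5 from -0.24 to 0.022, Ephb4 from -0.015 to 0.12, Sele from -0.067 to 0.13, Prox1 from -0.16 to 0.11 and Flt4 from -0.15 to 0.021. The cause was not tested. The smallest adjusted p of a member in any setting was 0.191, in limma with array weights. Dim genes (Icam2, Sele) and 3 mice a group limit what could be detected.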
